A study of Homo sapiens with 10 samples.

Results

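Mitochondrial ribosomal proteins are the nuclear-encoded proteins of the ribosome that works inside mitochondria. Their genes were taken as every symbol in the authors' annotation that starts with MRPL or MRPS, followed by a number and at most one letter from A to C, with the probe set of the highest mean over the 10 arrays for each symbol. The rule found 76 probe sets of 75 genes, 48 named for the large subunit (MRPL) and 27 for the small subunit (MRPS), out of 29405 symbols on the array, and all 75 were kept because no filter on low values was applied. UT-SCC-12a cells are a human line grown from a squamous cell carcinoma of the skin. The 5 overexpressing arrays carried RNA of cells stably transduced with a lentiviral construct for miR-23b-3p, and the 5 control arrays carried RNA of cells transduced in the same way with a scrambled RNA. Both groups therefore share the parental line and the lentiviral transduction. The labels name neither clones nor separate cultures, and every p-value here rests on array-to-array spread that may be purely technical. Expression is given as log2 RMA values, on which a difference of 1 is a doubling, and a difference is always overexpressing minus control.

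Human mitochondria keep a ribosome that is related to that of bacteria but holds more protein and less RNA. It translates only the few messages of the mitochondrial genome, which encode membrane subunits of the respiratory chain and of ATP synthase, and every protein of this ribosome is made in the cytosol from a nuclear gene and imported. Some of these proteins have a bacterial counterpart and others exist only in mitochondria. Tumour cells that respire need this ribosome, and the promoters of its genes are known to be bound by the nuclear respiratory factor NRF1, by the ETS factor GABP and by YY1.

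The overexpressed microRNA is shown to identify the agent. Its mature sequence from RefSeq (chr9:95085265-95085287, plus strand, GRCh38.p14) has the seed, bases 2 to 8, in capitals.
hsa-miR-23b-3p: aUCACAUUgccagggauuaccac

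The labelled cell type was checked on keratinocyte marker genes. SFN, DSG3, TP63, KRT5 and PKP1 had mean values between 7.29 and 10.6, while KRT16 stood at 4.33 and KRT17, KRT6A and KRT14 at 3.70 to 3.82, close to the antigenomic background probes, which averaged 3.25 to 3.46 per array. Markers of other cell types lay low: all 5 melanocyte genes, all 6 blood and immune genes, 5 of 6 fibroblast genes and 3 of 5 endothelial genes were under 4. KRT14, the partner of KRT5 in basal keratinocytes, was thus near background on these arrays. Median log2 values of the arrays lay between 3.14 and 3.19.

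The differences of the mitochondrial ribosomal protein genes were small. None of the 75 genes passed an adjusted p of 0.05 by limma, adjusted by Benjamini-Hochberg across the whole array, where 9 of 48144 probe sets did (0.0187%), and the smallest adjusted p among the genes was 0.529, for MRPS28. With each gene's own variance in place of limma's moderated one the count was 0 as well. The 75 differences ran from -0.35 to 0.20 with a median of -0.030, and 57 of them (76.0%) were smaller than 0.1 in size, against 65.7% of all tested probe sets and 69.96% of those with a mean above 5. At an unadjusted p under 0.05 there were 4 lower genes, MRPS28, MRPL22, MRPL1 and MRPL47, against a background of 2.95% of all tested probe sets that were lower at that level. One gene, MRPL33, was higher, where the background was 3.67%. These 4 and 1 genes are 5.33% and 1.33% of the 75. Among all tested probe sets with a mean above 5 the background was higher, 3.998% lower and 4.58% higher at that level. The same 4 and 1 genes are 5.80% and 1.45% of the 69 genes with a mean above 5.

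The intervals give the precision of these differences. The pointwise 95% interval of limma lay within a 1.5-fold change in either direction for 75 of 75 genes, against 97.3% of all tested probe sets with a mean above 5, so this count is near the level of the array. It lay within a 1.3-fold change for 71 genes (94.7%), against 86.5%. For MRPL54 and MRPL23, which read near background, an interval on the array scale bounds no change in RNA. The lowest bound of all, -0.58, belonged to MRPS28, and the highest, 0.36, to MRPL33. These genes also varied little between arrays of one group. Their median within-group SD was 0.086, against 0.109 for all tested probe sets with a mean above 5 and 0.146 for all tested probe sets. MRPL9 had the smallest within-group SD at 0.033 and MRPL55 the largest at 0.27.

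**Figure D1:**
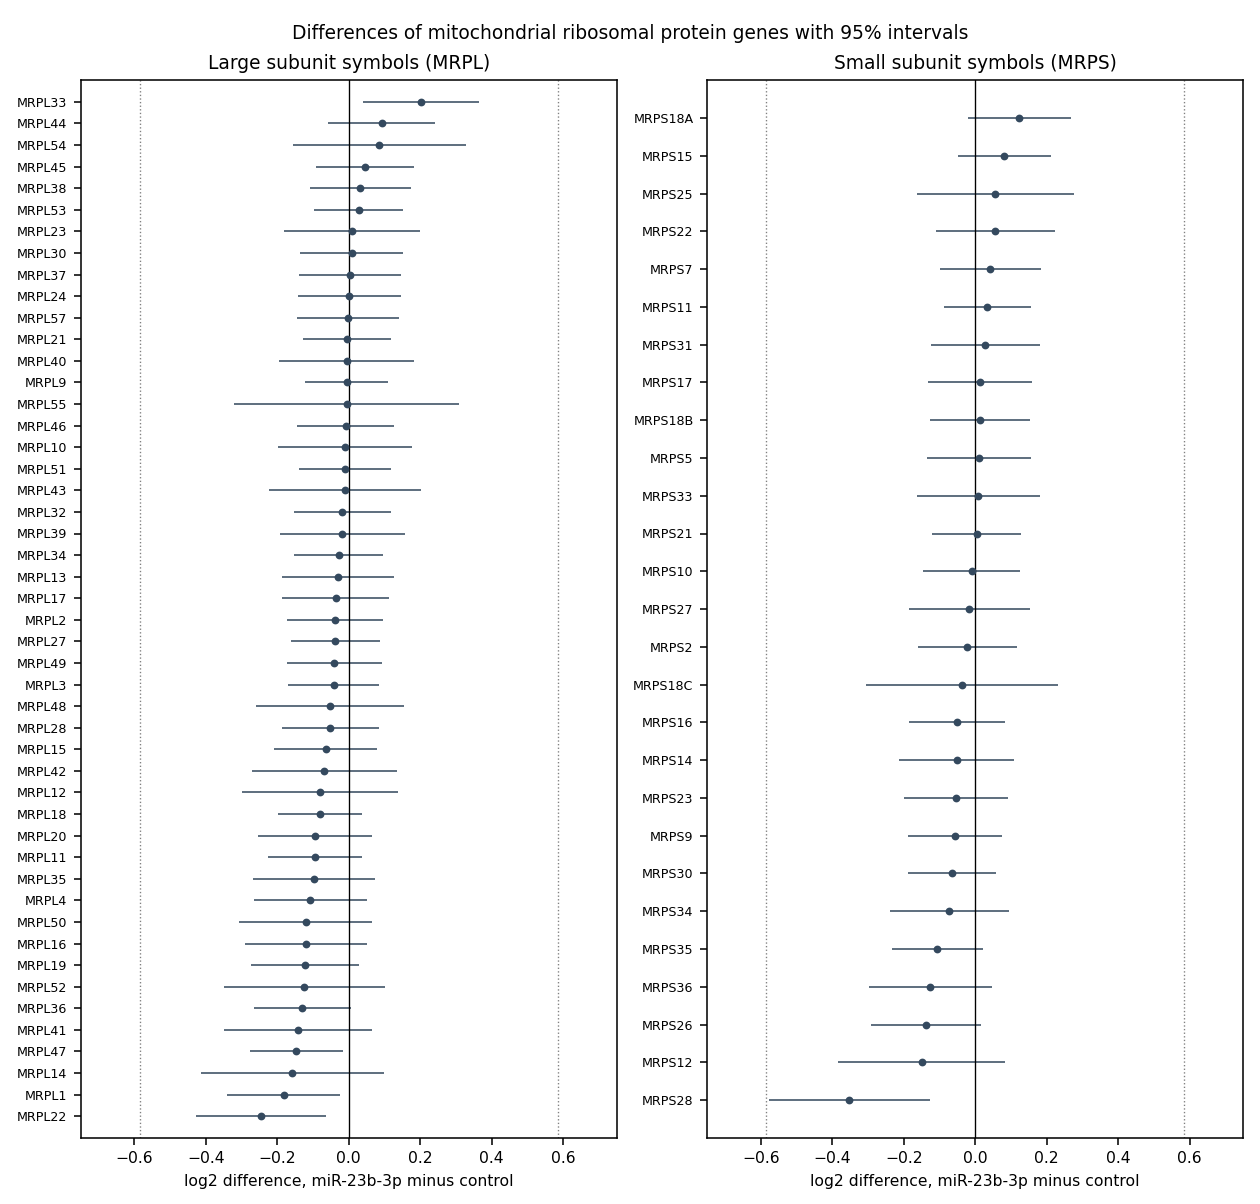
Log2 difference of each gene, overexpressing minus control (x axis), with limma's 95% interval, for 48 MRPL genes (left) and 27 MRPS genes (right), sorted by size; dotted lines mark a 1.5-fold change. All 75 intervals stay inside the dotted lines, and MRPS28 at -0.35 and MRPL33 at 0.20 are the outermost points.

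MRPS28, the small subunit protein related to bacterial S1, had the lowest difference of the 75. Its overexpressing arrays read 6.06, 6.36, 6.18, 6.57 and 6.54, and its control arrays 6.86, 6.67, 6.76, 6.58 and 6.60. The groups did not overlap, but the highest overexpressing array and the lowest control array were only a rounding step apart. MRPS28 was the only gene of the 75 with separate groups, where 1.35% of all tested probe sets were separate and 0.661% separate and lower. Among the 12131 tested probe sets with a mean above 5, where MRPS28 lies, 189 were separate and lower and 194 separate and higher. MRPS28 averaged 6.34 ± 0.22 in overexpressing cells and 6.69 ± 0.12 in control cells (SD, n = 5 each), a difference of -0.35 (SE 0.10, limma unadjusted p = 0.00513, adjusted p = 0.529), and its gene lies on chromosome 8.

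MRPL22 forms part of the wall of the tunnel through which the new chain leaves the large subunit. Its probe set (hg19 chromosome 5, 154320630 to 154348971, plus strand) read 5.05, 5.46, 5.30, 5.24 and 5.17 in overexpressing cells, against 5.43, 5.47, 5.57, 5.62 and 5.36 in control cells. Overexpressing replicate 2 lay inside the range of the controls and the other 4 below it. The difference of MRPL22 was -0.25 (SE 0.084, limma unadjusted p = 0.0122, adjusted p = 0.652).

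MRPL33, a small protein of the large subunit with a bacterial counterpart, was the gene with the highest difference. Its arrays (hg19 chromosome 2, 27994584 to 28002608, plus strand) read 6.56, 6.72, 6.71, 6.74 and 6.80 in overexpressing cells, against 6.39, 6.36, 6.57, 6.65 and 6.55 in control cells. Overexpressing replicates 2 to 5 lay above every control array, and replicate 1 lay among the controls. The difference of MRPL33 was 0.20 (SE 0.075, limma unadjusted p = 0.0189, adjusted p = 0.686). MRPL33 was also the only gene with a second probe set (chromosome 2, 28005439 to 28005561), which the authors' annotation describes as a transcript subject to nonsense-mediated decay. That probe set differed by 0.33 (SE 0.11, limma unadjusted p = 0.00999, adjusted p = 0.637), with a mean of 3.31 ± 0.23 in overexpressing cells and 2.98 ± 0.13 in control cells (SD, n = 5 each), which is at the level of the background probes.

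MRPL1, the protein of the mobile stalk beside which spent transfer RNA leaves, read 5.63, 5.77, 5.62, 5.85 and 5.72 in overexpressing cells, against 5.86, 5.97, 5.77, 6.05 and 5.85 in control cells (hg19 chromosome 4, 78783674 to 78882347, plus strand). The groups of MRPL1 overlapped, and the difference was -0.18 (SE 0.073, limma unadjusted p = 0.0282, adjusted p = 0.717). MRPL47, which sits at the exit of the tunnel, read 7.33, 7.30, 7.25, 7.33 and 7.42 in overexpressing cells, against 7.49, 7.52, 7.46, 7.52 and 7.37 in control cells (hg19 chromosome 3, 179306073 to 179322442, minus strand). Control replicate 5 alone fell among the overexpressing arrays, and the difference of MRPL47 was -0.15 (SE 0.060, limma unadjusted p = 0.0306, adjusted p = 0.723).

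**Figure D2:**
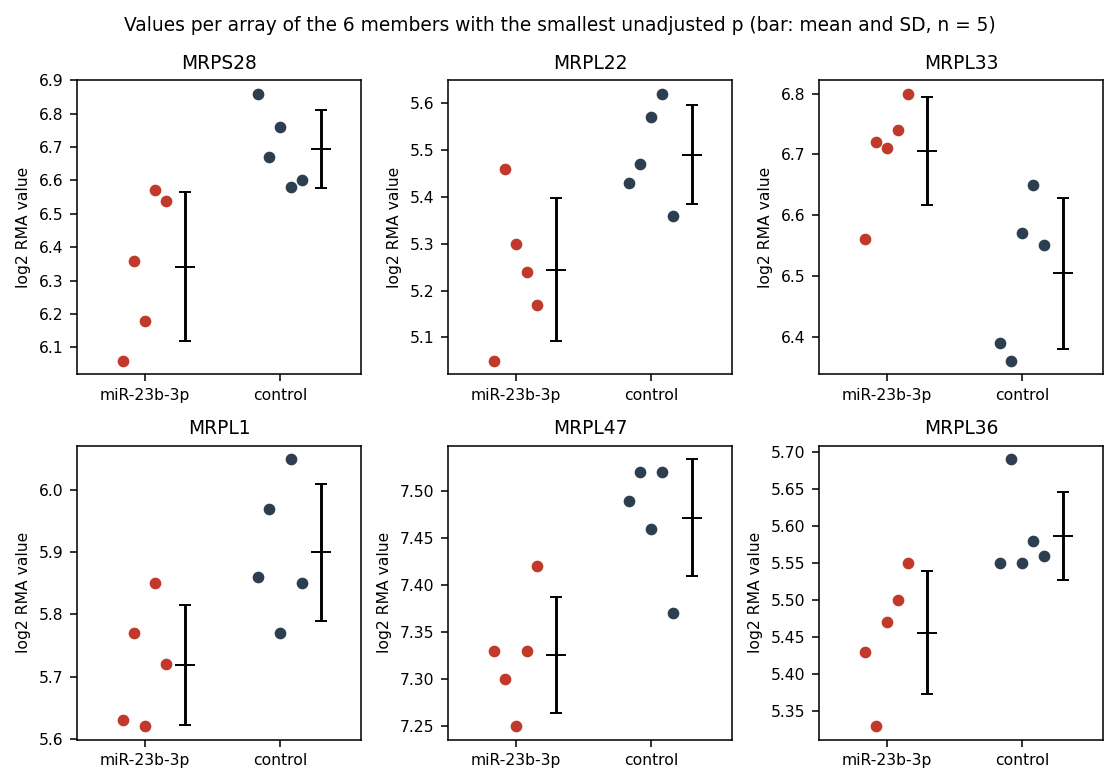
Log2 RMA value of each array (y axis, scale of its own per panel, not from 0) for the 6 genes with the smallest unadjusted p, overexpressing left and control right; bars give the mean and SD of 5 arrays. MRPS28 alone has groups that do not overlap, with 6.57 as its highest overexpressing and 6.58 as its lowest control array.

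Of the genes with the 12 smallest p, 7 more did not reach an unadjusted p of 0.05. MRPL36 stood at -0.13 (SE 0.063), MRPS26, a mitochondria-specific protein of the small subunit, at -0.14 (SE 0.071), MRPS35, another, at -0.11 (SE 0.058), MRPL19 at -0.12 (SE 0.070), MRPL11, which lies at the base of the stalk that receives translation factors, at -0.094 (SE 0.061), and MRPS36 at -0.13 (SE 0.079). MRPS18A, the seventh, was on the other side at 0.12 (SE 0.066). Their limma adjusted p lay between 0.758 and 0.837. For these 7 genes the overexpressing and control arrays overlapped.

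Promoters were read because the genes of one ribosome share regulators, and most of these genes lay slightly to the lower side. RefSeq promoter windows (GRCh38.p14) run from 250 bases before to 50 after the start of a gene, and 67 of the 75 genes matched one by gene identifier, the first listed where a gene had several. The ETS core CCGGAAG, on either strand, was in 28 of the 67 windows (41.8%), against 10.7% of 27305 windows of all genes. The YY1 core AAGATGG was in 22 (32.8%), against 6.06% of all windows, and the NRF1 core GCATGCG in 7 (10.4%), against 4.13%. At least one of these 3 motifs was in 43 windows (64.2%), against 18.9% of all windows. The GC box GGGCGG was in 59.7% against 44.6%, the CCAAT box in 29.9% against 35.7% and the E box CACGTG in 10.4% against 7.43%. Members' windows had a median GC content of 60.0%, against 58.3% for all windows. The ETS and YY1 cores share 3 letters but did not overlap in any of the 67 windows.

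The differences were also split by these motifs. The 22 genes with a YY1 core had a median difference of -0.046, 17 of them lower, and the 45 without it a median of -0.022, 29 lower. The 28 genes with an ETS core had a median of -0.023, 18 of them lower, and the 39 without it -0.028, 28 lower. The 7 genes with an NRF1 core had a median of -0.036, 5 of them lower, and the 60 without it -0.025, 41 lower. These are descriptions without a test, and a match of letters is no evidence that a factor binds.

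Windows are printed for the gene with the highest difference, for MRPL22 and MRPL47, the genes among the 4 lower ones at an unadjusted p under 0.05 whose windows hold a core, and for MRPL46, whose window overlaps that of another member. Each runs 5′ to 3′ along its gene, with the NRF1, ETS and YY1 cores in capitals. MRPL33 (chr2:27771469-27771768, plus strand) has 1 ETS core. MRPL22 (chr5:154940823-154941122, plus strand) has the NRF1 core on both strands at once, as overlapping matches, and 1 YY1 core. MRPL47 (chr3:179604589-179604888, minus strand) has 1 YY1 core and 1 ETS core. MRPL46 (chr15:88467339-88467638, minus strand) has 1 YY1 core close to its start site.
MRPL33: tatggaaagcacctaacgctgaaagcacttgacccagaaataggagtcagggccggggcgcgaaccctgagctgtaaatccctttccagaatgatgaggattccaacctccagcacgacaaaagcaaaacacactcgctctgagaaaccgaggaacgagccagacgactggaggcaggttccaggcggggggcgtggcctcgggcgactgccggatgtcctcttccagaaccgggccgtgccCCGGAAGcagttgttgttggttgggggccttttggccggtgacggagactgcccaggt
MRPL22: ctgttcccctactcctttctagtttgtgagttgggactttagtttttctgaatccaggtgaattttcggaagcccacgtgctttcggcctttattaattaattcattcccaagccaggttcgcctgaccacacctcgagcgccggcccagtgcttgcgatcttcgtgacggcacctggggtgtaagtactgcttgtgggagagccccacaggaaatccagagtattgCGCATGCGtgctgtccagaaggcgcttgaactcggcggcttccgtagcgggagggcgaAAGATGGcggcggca
MRPL47: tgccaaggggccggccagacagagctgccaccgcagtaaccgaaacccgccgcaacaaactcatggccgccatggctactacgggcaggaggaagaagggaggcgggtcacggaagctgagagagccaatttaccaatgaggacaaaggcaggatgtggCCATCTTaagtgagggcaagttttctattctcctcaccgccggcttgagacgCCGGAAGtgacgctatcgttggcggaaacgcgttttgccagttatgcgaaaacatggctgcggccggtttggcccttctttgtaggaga
MRPL46: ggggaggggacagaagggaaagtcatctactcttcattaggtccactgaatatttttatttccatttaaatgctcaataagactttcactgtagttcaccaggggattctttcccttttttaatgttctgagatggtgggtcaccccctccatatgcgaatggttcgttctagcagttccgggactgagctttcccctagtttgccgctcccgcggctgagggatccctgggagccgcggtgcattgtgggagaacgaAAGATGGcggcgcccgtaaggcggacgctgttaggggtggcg

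The window of MRPL1 held none of the 3 cores, and MRPS28 is not among the 67 matched genes. The higher MRPL33 and the lower MRPL47 both carried the ETS core. MRPL22 and MRPL47, both lower, carried the YY1 core. So did MRPS18A, which stood at 0.12 (limma unadjusted p = 0.0853). So few genes cannot show whether a motif goes with a direction, and this was not tested.

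**Figure D3:**
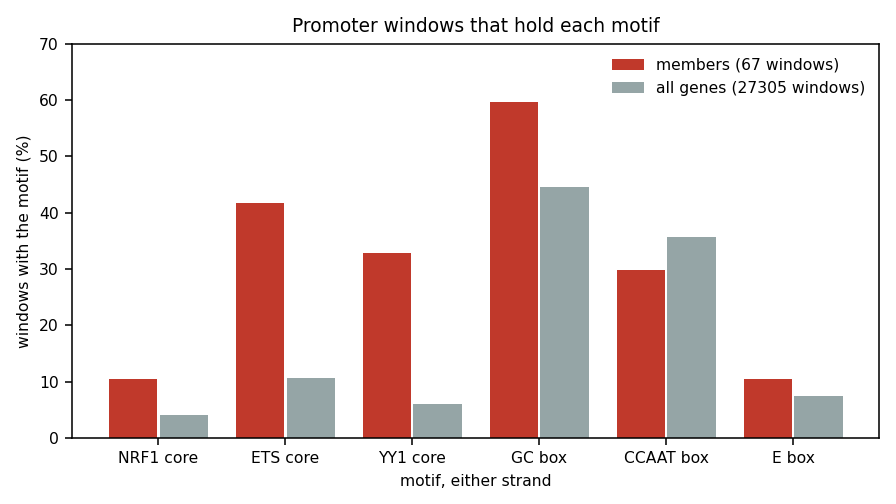
Share of promoter windows (y axis, %) that hold each motif on either strand, for 67 windows of the mitochondrial ribosomal protein genes (left bar) and 27305 windows of all genes (right bar). The ETS core is in 41.8% against 10.7% and the YY1 core in 32.8% against 6.06%, while the CCAAT box is less frequent in these genes, at 29.9% against 35.7%.

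The genes lie on 21 chromosomes, with at most 8 on one of them. MRPL46 and MRPS11 were the only 2 members whose spans lie within 100 kb of each other, on hg19 chromosome 15, where MRPL46 is annotated on the minus strand from 89002707 to 89054752 and MRPS11 on the plus strand from 89010684 to 89022222. Their RefSeq start sites are 320 bases apart and point away from each other, and their promoter windows share 181 bases. The genes of this divergent pair lay close to 0, with differences of -0.008 for MRPL46 and 0.034 for MRPS11.

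By the subunit in the symbol, 38 of 48 MRPL genes were lower, with a median of -0.037, and 15 of 27 MRPS genes, with a median of -0.016. Over all 75 genes 53 were lower and 22 higher, 70.7% lower, against 48.8% of all tested probe sets at a median of 0.002 and 48.1% of those with a mean above 5. This count of directions sets no minimum size, and 32 of the 53 lower genes differed by less than their own standard error. Median centring of the arrays gave 62 of 75 lower, with 55.1% of all tested probe sets lower. With the mean of the poly-A spikes as a covariate the count was 39 of 75, or 52.0%, at a median of -0.0046. Of all probe sets 48.2% were lower in that fit. The spike mean nearly follows the groups, so that fit cannot separate it from the overexpression.

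The proteins were also sorted by evolutionary origin, with MRPS18A and MRPS30 placed in the large subunit, where the structures show them. MRPS18A and MRPS18B were listed as found only in mitochondria, although both are relatives of bacterial S18. Of 30 large subunit proteins with a bacterial counterpart, 26 were lower, with a median of -0.047, 3 of them lower and 1 higher at an unadjusted p under 0.05. Of 20 large subunit proteins listed as found only in mitochondria, 13 were lower, with a median of -0.009. MRPS18A, at 0.12, was the highest of these 20. In the small subunit, 8 of 14 proteins with a bacterial counterpart were lower (median -0.016), as were 5 of 10 listed as mitochondria-specific (median -0.004). The differences between these classes were not tested.

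The 3 human relatives of bacterial S18 were named for their shared origin. MRPS18A, which occupies a place in the large subunit, averaged 8.23 ± 0.086 in overexpressing cells and 8.11 ± 0.081 in control cells (SD, n = 5 each), a difference of 0.12 (SE 0.066, 95% interval -0.020 to 0.27). MRPS18B, a small subunit protein, differed by 0.014 (interval -0.13 to 0.15), and it alone of the 75 has a probe set of mixed cross-hybridization type. MRPS18C, the small subunit protein closest in place to the bacterial one, differed by -0.036 (interval -0.30 to 0.23) and had one of the larger within-group SDs at 0.22. All 3 intervals include 0, and a difference among the paralogs was not tested.

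MRPL12, which forms the stalk that contacts translation factors and is also reported to bind the mitochondrial RNA polymerase, averaged 7.68 ± 0.21 in overexpressing cells and 7.76 ± 0.13 in control cells (SD, n = 5 each), a difference of -0.080 (interval -0.30 to 0.14). MRPS30, a large subunit protein despite its symbol, stood at -0.066 (interval -0.19 to 0.057). MRPS36, named KGD4 in current RefSeq because it belongs to the 2-oxoglutarate dehydrogenase complex rather than to the ribosome, stood at -0.13 (interval -0.30 to 0.046).

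Probe sets differ in their response, so their values do not rank the abundance of different genes. The brightest probe sets were those of MRPL3, which lies near the peptidyl transferase centre, of MRPL45, which anchors the ribosome to the inner membrane, and of MRPL37 in the large subunit. Their differences were -0.042 (SE 0.059), 0.046 (SE 0.063) and 0.004 (SE 0.066). In the small subunit MRPS21, MRPS15 and MRPS35 were brightest, at 0.004 (SE 0.057), 0.082 (SE 0.060) and -0.11 (SE 0.058). The dimmest were MRPL54, MRPL23 and MRPL52 at 0.086 (SE 0.11), 0.010 (SE 0.087) and -0.12 (SE 0.10), and MRPS18C, MRPS36 and MRPS33, the last at 0.008 (SE 0.079). MRPL54 and MRPL23, with means of 3.39 and 3.57, were the 2 genes under 4.

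**Figure D4:**
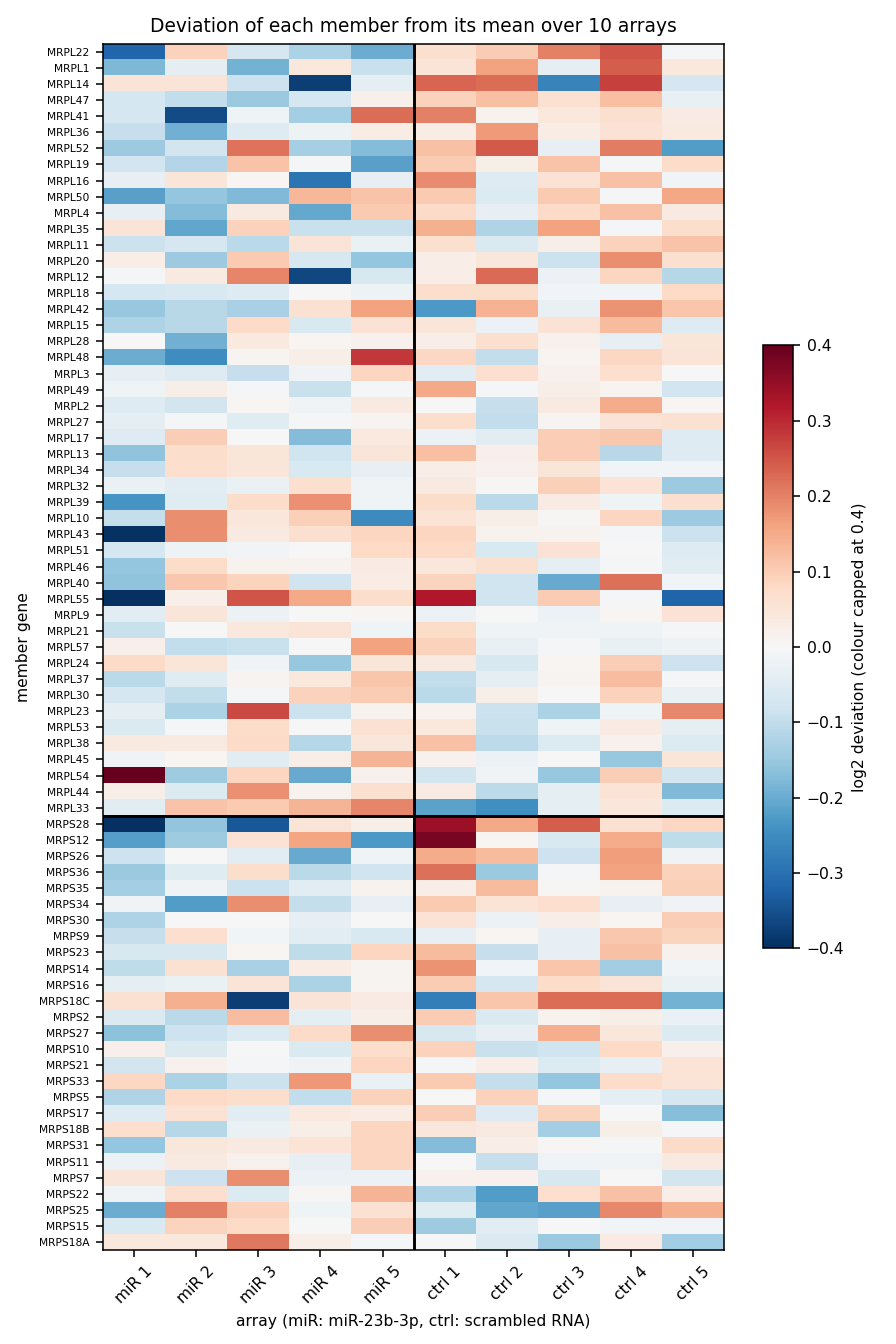
Log2 deviation of each of the 75 genes (rows, MRPL above MRPS, sorted by difference) from its own mean over the 10 arrays (columns, overexpressing left and control right of the line), with the colour capped at 0.4. Blue marks low values, and overexpressing replicate 1 is the bluest column, with 61 of 75 genes below their own mean, and control replicates 1 and 4 have 18 and 25 below.

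The small shift in sign was carried unevenly by the arrays. The mean deviation of the 75 genes was -0.077, -0.029, 0.012, -0.028 and 0.024 in overexpressing replicates 1 to 5, against 0.050, -0.0066, 0.0052, 0.059 and -0.0096 in control replicates 1 to 5. The groups overlapped, with overexpressing replicates 3 and 5 above 3 of the 5 controls. Overexpressing replicate 1 was the lowest of the 10 arrays for 22 of the 75 genes and the highest for 1. Without it 46 of 75 genes (61.3%) were lower, with a median of -0.017. The background moved in that fit as well. Of all tested probe sets 48.8% were lower, and of those with a mean above 5 43.6%, at a median of 0.014. Large and small subunit genes had nearly the same deviation in overexpressing replicate 1, -0.077 each. All tested probe sets with a mean above 5 deviated by -0.035 in overexpressing replicate 1, also the lowest of the 10 arrays. The poly-A spikes, which are foreign RNAs put in to track the labelling step, averaged 5.35 ± 0.093 in overexpressing arrays and 5.46 ± 0.020 in control arrays (SD, n = 5 each). Overexpressing replicates 1 to 4 averaged 5.20 to 5.37 on the spikes, and the controls 5.44 to 5.48. The poly-A covariate above thus nearly follows the groups, and spike level and overexpression cannot be told apart in its fit. The part of these array measures in the shift was not tested.

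**Figure D5:**
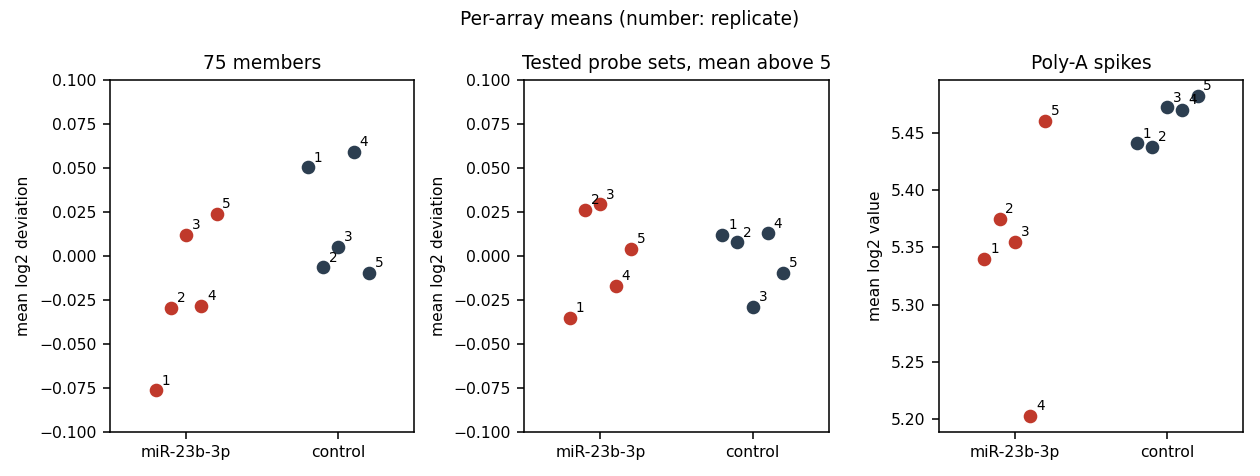
Mean deviation per array of the 75 genes (left), of all tested probe sets with a mean above 5 (middle), both on the same log2 scale, and mean log2 value of the poly-A spikes (right), with replicate numbers beside the points. Overexpressing replicate 1 is lowest in the first 2 panels, at -0.077 and -0.035, and the groups overlap in all 3.

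The RNA of the mitochondrial genome, from which the ribosomal RNAs and all its messages come, was read by 32 probe sets on the mitochondrial chromosome, a set added after the values had been seen. None passed the adjusted threshold, and 1 had an unadjusted p under 0.05, a transfer RNA for arginine (chromosome M, 10405 to 10469) at -0.34 (SE 0.11, limma unadjusted p = 0.0124, adjusted p = 0.652). The small ribosomal RNA (chromosome M, 648 to 1601) differed by -0.022 (SE 0.067). It averaged 12.6 ± 0.12 in overexpressing cells and 12.7 ± 0.031 in control cells (SD, n = 5 each). No other probe set was annotated as a ribosomal RNA. The probe set at 1671 to 3229, annotated as an mRNA named TVAS5, stood at 0.028 (SE 0.085). It starts directly after the transfer RNA for valine (1602 to 1670) and ends before ND1 (3307 to 4262). The annotation names no large ribosomal RNA, which does not mean that this RNA was not measured. The 10 protein-coding probe sets were all on the lower side, from -0.22 for ND6 to -0.008 for ND3, with a median of -0.036. For 9 of the 10 the interval lay within a 1.3-fold change. ND6, the dimmest of them at a mean of 9.49, had an interval of -0.77 to 0.34. COX1, at 13.29, had the highest mean of all tested probe sets, and the median of these 10 was 13.2. Whether values so near the top of the scale still follow the RNA was not tested. Transcripts of one strand of this genome are cut from a common precursor, so these probe sets are not independent of each other.

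Other genes of mitochondrial translation gave the same picture of small differences without a call. Of 6 measured ribosomal proteins that carry other symbols, 3 were lower, with GADD45GIP1 at -0.14 (SE 0.073), MRPL58 (ICT1 in the authors' annotation), a hydrolase that rescues stalled ribosomes, at -0.11 (SE 0.068), and AURKAIP1 at 0.046 (SE 0.073). Of 23 assembly factors 15 were lower, at a median of -0.048, with the RNA-binding protein FASTKD2 at -0.13 (SE 0.059), MTERF3 at -0.13 (SE 0.068) and RBFA, which helps mature the small subunit, at -0.10 (SE 0.068). Of 15 translation factors 12 were lower, at a median of -0.032, with the elongation factors GUF1 at -0.11 (SE 0.061) and GFM1 at -0.086 (SE 0.060) and the translational activator TACO1 at -0.080 (SE 0.067).

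Of 20 genes for mitochondrial transfer RNA charging 14 were lower, at a median of -0.030. The alanine and tyrosine enzymes AARS2 at -0.25 (SE 0.11) and YARS2 at -0.17 (SE 0.079) had an unadjusted p under 0.05, and the valine enzyme VARS2 stood at 0.15 (SE 0.086). Of 14 measured genes for mitochondrial transcription and RNA stability 12 were lower, at a median of -0.071, with the DNA-packaging transcription factor TFAM at -0.13 (SE 0.063), the helicase TWNK at -0.17 (SE 0.082) and the RNA-binding SLIRP at -0.13 (SE 0.072). Of 9 nuclear regulators 5 were lower. Among the factors whose motifs are shown above, YY1 stood at 0.12 (SE 0.093), the GABP subunits GABPA and GABPB1 at 0.074 (SE 0.060) and -0.030 (SE 0.060), and NRF1 at -0.042 (SE 0.10). MYC stood at 0.086 (SE 0.062). In these 6 lists 0 genes passed the adjusted threshold by limma, and 0 without moderation of the variance. At an unadjusted p under 0.05 there were 3 of 87 genes, all lower. At that level 2.95% of all tested probe sets were lower, and 3.998% of those with a mean above 5.

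In the authors' deposited table the 75 genes have fold changes, overexpressing against control, between -1.27 and 1.15, where a negative sign marks a lower value. Of these genes 8 have p under 0.05 in the authors' deposited table, 7 lower and 1 higher, and the smallest q there is 0.495. The share of all probe sets with such a p in that table was not computed, so these counts have no background beside them.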

How the data were processed

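Total RNA of UT-SCC-12a cells with miR-23b-3p (5 arrays) or a scrambled RNA (5 arrays) was measured on Affymetrix human gene arrays, and groups follow the sample titles. Analysis began from log2 values in the deposited value table, unchanged. The submitters' processing notes name RMA and Transcriptome Analysis Console; the file headers of the authors' table name background correction, quantile normalization and median polish. In the authors' table the fold change is a signed linear ratio and the p-value and q-value come from Student's test, per the file headers; to fix its direction, it was set against linear group means, and overexpressing over control gave the deposited fold within a relative 0.001 for 53617 of 53617 rows. Its 10 columns of array values match no sample label and were not used. One keratinocyte marker is not reported here.

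Of 53617 probe sets, 48144 of the main and rescue categories were fitted with limma 3.58.1 in R 4.3.3 (lmFit, eBayes, no covariates, Benjamini-Hochberg over all of them, threshold 0.05); the other 5473, controls and reporters, were not fitted. Symbols and hg19 positions are those of NetAffx build 36, per the file headers, and list genes were matched through Entrez identifiers to RefSeq names. The fit was tested on simulated data. The number of arrays limits the precision. The genes and lists were chosen with earlier results of these data known. Named genes were the 12 with the smallest p, those with separate groups, the 3 brightest and 3 dimmest per subunit symbol, MRPS18A, MRPS18B, MRPS18C, MRPL12, MRPS30 and MRPS36, and up to 3 per other list; MRPL9, MRPL55, MRPL46, MRPS11, NRF1, GABPB1, the mitochondrial chromosome and the motifs were added after values were seen. Replicate numbers did not pair the arrays: correlations of deviations between equal numbers lay between -0.10 and 0.043.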

Additional observations from a re-analysis of the deposited data

Results flagged for a closer look

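Of 50 groups of 5 arrays, 2 for each of the 25 named genes, 7 had 1 array far from the other 4 by Dixon's test, where chance flags about 1 group in 20. Overexpressing replicate 3 stood out in 3 of them, high for MRPS18A at 8.38 (others 8.16 to 8.21) and for MRPL52 at 4.71 (others 4.32 to 4.42), and low for MRPS18C at 4.57 (others 4.98 to 5.09). Overexpressing replicate 1 was low for MRPS30 at 8.57 (others 8.66 to 8.69). Among the controls, replicate 2 was high for MRPL36 at 5.69 (others 5.55 to 5.58), replicate 1 low for MRPS15 at 9.65 (others 9.75 to 9.79) and replicate 3 low for MRPS18B at 7.93 (others 8.06 to 8.11).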

How the results depend on the processing

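The count of genes past the adjusted threshold was 0 under all 22 alternatives run. The median of the 75 differences stayed below 0 in the 21 that recompute it, from -0.046 with median centring to -0.0046 with the poly-A covariate, which was added after seeing the data, and from -0.046 to -0.017 when one array was left out. The number of lower genes lay between 39 and 62, and between 46 and 57 when one array was left out. The number of genes at an unadjusted p under 0.05, 5 as reported, was 9 with each gene's own variance per group and 3 to 7 when one array was left out. It was 3 without control replicate 2 and 3 without control replicate 4. With the replicate block it was 4, the block gave 0 calls, and the numbers do not pair the arrays. The share of all tested probe sets at an unadjusted p under 0.05 is not given for these alternatives. Their counts therefore have no background beside them and show no excess. MRPS28 kept an unadjusted p under 0.05 in 22 of 22 alternatives (adjusted p 0.331 to 0.782), MRPL22 and MRPL33 in 21 each, MRPL1 in 18 and MRPL47 in 15. Of the 25 named genes, 17 had the same sign in every alternative run, and the other 8 were within 1 standard error of 0 where their sign changed. Signal over background limits MRPL54, MRPL23 and the second MRPL33 probe set.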

Other observations

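Genes beside MRPS28 were read after its values had been seen. Of 5 named probe sets within 300 kb on chromosome 8, HEY1, a NOTCH target gene about 151 kb away, stood at 2.22 ± 0.14 in overexpressing cells and 2.53 ± 0.22 in control cells (SD, n = 5 each), both below the level of the background probes. Its difference was -0.31 (SE 0.11, limma unadjusted p = 0.0124, adjusted p = 0.652). TPD52, the nearest at 4.49 kb and on the same strand, averaged 3.75 ± 0.064 in overexpressing cells and 3.68 ± 0.087 in control cells (SD, n = 5 each), near background, and differed by 0.072 (SE 0.064). The other 3, STMN2, LINC01607 and LOC101927040, differed by 0.082, 0.018 and 0.072, at means below the background probes. Differences at these levels say little about the RNA.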
